A study of Homo sapiens with 9 samples.

Results

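The study silenced CDO1 in prostate cancer cells, and 10 genes of the stress signalling that starts at the endoplasmic reticulum (ER) were followed there. CDO1 is the dioxygenase that oxidizes cysteine. The genes were 3 sensor kinases (ERN1, EIF2AK3 and EIF2AK4), 5 transcription factors (XBP1, ATF4, DDIT3, ATF3 and CEBPB) and 2 feedback inhibitors (TRIB3 and PPP1R15A). They were chosen by symbol, with earlier results of these data known. Each symbol had 1 row among the 58735 genes of the count table. All 10 genes were among the 15555 with enough counts to be tested. Cells of the established prostate cancer line VCaP were grown in medium with 10% serum and 2 nM of the androgen DHT and transfected with small interfering RNA (siRNA), a short RNA duplex that leads to the cleavage of a chosen messenger RNA. There were 3 conditions with 3 libraries each, a control siRNA (siCtrl) and the CDO1 siRNAs siCDO1A and siCDO1C, and the cells of all 3 carried the same wild-type genotype and received the same medium. Poly(A) RNA was read as directional libraries. This measures RNA and neither the protein nor the phosphorylation of a kinase, and the counts per gene used here do not show the splicing of XBP1.

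When unfolded proteins accumulate in the ER, the membrane kinase IRE1 (encoded by ERN1) splices the messenger RNA of XBP1, and the membrane kinase PERK (EIF2AK3) phosphorylates the translation factor eIF2. Phosphorylated eIF2 slows protein synthesis in general while the messenger RNA of ATF4 is translated more, and GCN2 (EIF2AK4) reaches the same step when amino acids are short. ATF4 then activates genes that include DDIT3 (CHOP), ATF3, TRIB3 and PPP1R15A (GADD34), the last of which brings a phosphatase to eIF2 and so closes the loop.

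The promoters of 4 of these genes are shown because 3 hold a motif of this response and because DDIT3 is the gene among the 10 that differed between the CDO1 siRNAs. Sequences are those of RefSeq on GRCh38.p14, from 250 bases before to 50 bases after the annotated start, read 5′ to 3′ in the direction of transcription. Motif letters are in capitals. They mark the ER stress response element (CCAAT and CCACG separated by 9 bases) in XBP1, the C/EBP-ATF response element TGATGNAAN in ATF3 and the cyclic AMP response element TGACGTCA in PPP1R15A.
XBP1: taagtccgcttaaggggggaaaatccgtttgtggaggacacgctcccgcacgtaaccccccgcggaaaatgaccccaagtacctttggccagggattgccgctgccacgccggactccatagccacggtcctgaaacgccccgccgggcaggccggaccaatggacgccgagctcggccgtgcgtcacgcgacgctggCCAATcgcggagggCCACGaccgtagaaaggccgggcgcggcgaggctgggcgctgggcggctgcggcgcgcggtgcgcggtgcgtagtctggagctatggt
ATF3: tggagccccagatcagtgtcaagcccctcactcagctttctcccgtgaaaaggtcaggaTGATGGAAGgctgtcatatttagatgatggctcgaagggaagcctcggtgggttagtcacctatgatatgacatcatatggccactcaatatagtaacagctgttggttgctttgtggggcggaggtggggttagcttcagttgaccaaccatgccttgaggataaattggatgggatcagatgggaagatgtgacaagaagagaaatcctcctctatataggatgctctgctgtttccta
PPP1R15A: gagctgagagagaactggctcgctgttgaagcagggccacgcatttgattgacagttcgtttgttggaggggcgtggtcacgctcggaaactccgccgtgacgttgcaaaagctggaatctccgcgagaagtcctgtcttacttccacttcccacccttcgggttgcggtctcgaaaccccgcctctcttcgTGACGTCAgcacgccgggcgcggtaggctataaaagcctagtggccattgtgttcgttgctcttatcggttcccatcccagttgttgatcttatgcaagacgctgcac
DDIT3: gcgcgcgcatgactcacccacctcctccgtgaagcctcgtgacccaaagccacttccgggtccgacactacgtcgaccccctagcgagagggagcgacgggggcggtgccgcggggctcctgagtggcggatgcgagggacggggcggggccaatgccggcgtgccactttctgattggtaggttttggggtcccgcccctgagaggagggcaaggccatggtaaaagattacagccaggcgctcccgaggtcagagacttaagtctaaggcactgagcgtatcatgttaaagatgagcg
These windows lie at chr22:28800520-28800819 (minus strand, XBP1), chr1:212565157-212565456 (plus strand, ATF3), chr19:48872171-48872470 (plus strand, PPP1R15A) and chr12:57520465-57520764 (minus strand, DDIT3). The first base of the motif was 52 bases before the start shown in XBP1, 191 in ATF3 and 58 in PPP1R15A. XBP1, ATF3 and DDIT3 each have another annotated start, whose window is not shown. Both strands of all 17 windows of the 10 genes were searched, also for the XBP1 and ATF6 element TGACGTGG, which shares its first 6 letters with the cyclic AMP response element. No other match was found, which says only that these letters are not in these windows. Among 35116 RefSeq promoter windows, 0.0769% held the ER stress response element, 3.61% the C/EBP-ATF response element, 1.85% the cyclic AMP response element and 0.729% the XBP1 and ATF6 element. A match is a stretch of letters and not a measured binding site.

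Levels are given in CPM, the counts of a gene scaled to the library total and adjusted by TMM, and a gene counted as changed at an adjusted p of at most 0.05 in the quasi-likelihood test of edgeR, adjusted over all genes tested. Total counts ran from 12061295 to 16073698 per library, and the level that 3 counts stand for lay between 0.187 and 0.249 CPM. The targeted gene CDO1 was at 14.2, 14.1 and 13.7 CPM in the siCtrl libraries (replicates 1, 2 and 3), at 3.28, 2.05 and 2.18 CPM with siCDO1A and at 1.10, 2.81 and 1.16 CPM with siCDO1C, which is 82.1% ± 4.83 and 87.9% ± 6.98 lower than the siCtrl mean (SD, n = 3). Replicate 2 of siCDO1C kept the most CDO1 of its group. Of the 10 genes, it was the highest of the 3 siCDO1C libraries for 6 and the lowest for 2. A link between CDO1 and these levels was not tested. The 10 markers of prostate luminal and VCaP cells were all detected, and their summed level was 6260 to 6420 CPM in siCtrl, 7100 to 7480 CPM with siCDO1A and 6650 to 6810 CPM with siCDO1C. The 12 markers of fibroblasts, leukocytes and endothelium summed to 4.38 to 5.09, 6.02 to 7.79 and 5.4 to 6.24 CPM in the same order, with COL1A2, MS4A1 and CDH5 at 0 in every library. The part of these marker differences in the results below was not tested, and in bulk RNA fewer cells of a type and less RNA per cell cannot be told apart. The labels give a batch number to each library that equals its replicate number, so each batch holds 1 library of every group.

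With siCDO1A, 6 of the 10 genes fell (ERN1, EIF2AK3, XBP1, ATF4, ATF3 and PPP1R15A) and CEBPB rose. Of all genes tested, 14.8% changed with siCDO1A and 7.48% fell. With siCDO1C, 5 fell (EIF2AK3, XBP1, ATF4, DDIT3 and ATF3) and the other log2 fold changes were below 0 too, where 4.77% of all genes changed and 2.5% fell. EIF2AK4 and TRIB3 passed the test with neither siRNA. The median log2 fold change of the 10 genes was -0.19 with siCDO1A and -0.36 with siCDO1C, beside medians of 0.01 and -0.00023 over all genes tested. The 3 siRNA libraries and the 3 siCtrl libraries did not overlap, with siCtrl higher, for 6 genes with siCDO1A and for 7 with siCDO1C, against 15.4% and 12.0% of all genes tested. Both comparisons use the same 3 siCtrl libraries, so the values of a gene in them are not independent. The 10 genes were chosen with earlier results known, so their shares beside all genes are not an independent test. With the batch number as a block, siCDO1A changed 3 of the genes (ERN1, EIF2AK3 and PPP1R15A) and siCDO1C the same 5.

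**Figure D1:**
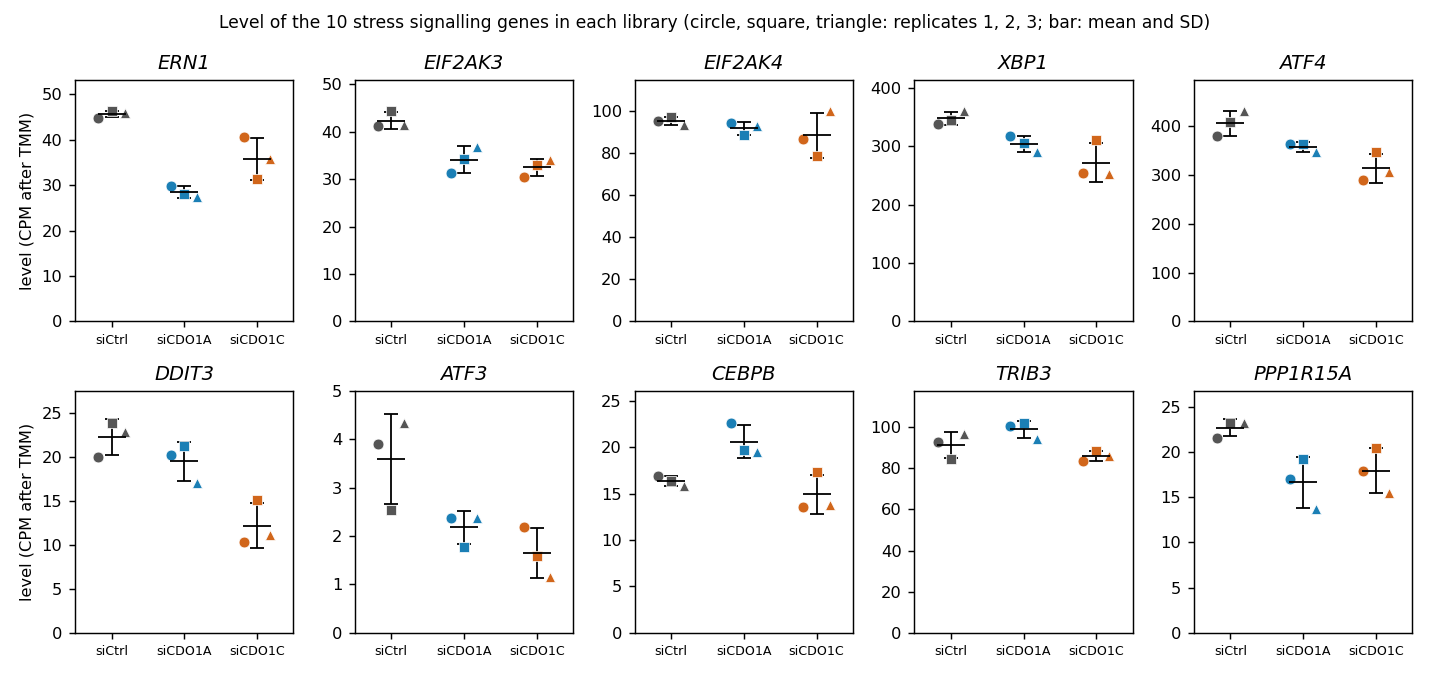
Level of each of the 10 genes in CPM after TMM (vertical axis, from 0) in the 3 libraries of siCtrl, siCDO1A and siCDO1C, with circle, square and triangle for replicates 1, 2 and 3 and bars for mean and SD. ERN1 in siCDO1A (27.4 to 29.9 CPM) and DDIT3 in siCDO1C (10.3 to 15.1 CPM) lie apart from siCtrl, while EIF2AK4 overlaps in all 3 groups.

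Among the sensors, ERN1 (ENSG00000178607, chr17:64039142-64130819) had the largest fold change with siCDO1A. Its level was 44.9, 46.3 and 45.8 CPM in siCtrl, 29.9, 27.99 and 27.4 CPM with siCDO1A and 40.5, 31.3 and 35.7 CPM with siCDO1C. The siCDO1A libraries were the lowest, the siCDO1C libraries lay between, and no group overlapped another. ERN1 fell with siCDO1A by 0.69 on the log2 scale (SE 0.0792, adjusted p = 5.02e-06), a change of -37.9%, and it passed the test in all 6 fits that left out 1 library and in all 6 other settings. With siCDO1C the log2 fold change was -0.36 (SE 0.0987, 95% interval -0.565 to -0.145), with an adjusted p of 0.0521 that missed the threshold. That value passed when siCDO1C replicate 1 or 2 was left out (smallest adjusted p = 0.0315) and with DESeq2, without a filter on low counts or in 1 fit of all 9 libraries (smallest adjusted p = 0.0158). Within the 3 batches the log2 ratio to siCtrl was -0.588, -0.725 and -0.744 with siCDO1A and -0.148, -0.565 and -0.36 with siCDO1C.

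EIF2AK3 (ENSG00000172071, chr2:88556741-88627576), which encodes PERK, fell with each siRNA. It was at 41.3, 44.3 and 41.6 CPM in siCtrl, 31.3, 34.2 and 36.9 CPM with siCDO1A and 30.6, 33.0 and 34.0 CPM with siCDO1C. All 6 libraries of the CDO1 siRNAs were below the 3 siCtrl libraries, and the siRNA groups overlapped each other. The log2 fold change was -0.31 (SE 0.0827, adjusted p = 0.0148) with siCDO1A and -0.39 (SE 0.0871, adjusted p = 0.0182) with siCDO1C. The siCDO1A call was lost without siCtrl replicate 2, siCDO1A replicate 1 or siCDO1A replicate 2 (largest adjusted p = 0.0859), and the siCDO1C call without any 1 of the siCtrl libraries or without siCDO1C replicate 1 (largest adjusted p = 0.125). The log2 fold change in these fits stayed between -0.368 and -0.253 for siCDO1A and between -0.424 and -0.339 for siCDO1C. Between the siRNAs it was -0.08 (95% interval -0.289 to 0.134, adjusted p = 0.959).

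EIF2AK4 (ENSG00000128829, chr15:39934146-40035591), which encodes GCN2, was at 95.3 ± 1.93 CPM in siCtrl, 91.8 ± 3.05 CPM with siCDO1A and 88.4 ± 10.7 CPM with siCDO1C (SD, n = 3). The groups overlapped. The log2 fold change was -0.05 (95% interval -0.18 to 0.073, adjusted p = 0.615) with siCDO1A and -0.12 (95% interval -0.303 to 0.0721, adjusted p = 0.538) with siCDO1C, and no setting tried brought either past the threshold. These intervals leave room for a fall of up to 0.303 on the log2 scale.

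XBP1 (ENSG00000100219, chr22:28794555-28800597) and ATF4 (ENSG00000128272, chr22:39519695-39522685), the transcription factors at the head of the IRE1 and PERK branches, were the most abundant of the 10 genes per length, and both fell with each siRNA. XBP1 was at 338, 345 and 360 CPM in siCtrl, 317, 305 and 290 CPM with siCDO1A and 253, 310 and 253 CPM with siCDO1C. ATF4 was at 379, 407 and 430 CPM in siCtrl, 364, 363 and 346 CPM with siCDO1A and 289, 347 and 305 CPM with siCDO1C. For both genes the 6 siRNA libraries were the lowest of the 9, and siCDO1C replicate 2 lay among the siCDO1A libraries. The log2 fold change of XBP1 was -0.19 (SE 0.0526, adjusted p = 0.016) with siCDO1A and -0.36 (SE 0.0828, adjusted p = 0.0208) with siCDO1C. That of ATF4 was -0.18 (SE 0.0543, adjusted p = 0.0275) with siCDO1A and -0.38 (SE 0.0806, adjusted p = 0.0136) with siCDO1C. In percent, XBP1 fell by 12.6% and 22.2% and ATF4 fell by 11.8% and 23.0%.

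With the batch number as a block, the siCDO1A values of XBP1 and ATF4 missed the threshold (adjusted p = 0.0925 and 0.122). They also missed it in 1 fit of all 9 libraries (adjusted p up to 0.137 for XBP1 and up to 0.15 for ATF4 over the settings tried) and without siCtrl replicate 2, siCtrl replicate 3 or siCDO1A replicate 2 (up to 0.063 and 0.132), and ATF4 also without siCDO1A replicate 1. The siCDO1C value of XBP1 passed only without siCDO1C replicate 2 (log2 fold change -0.462, adjusted p = 7.59e-08) when 1 library was left out, and missed the threshold without any other library (up to 0.126). The siCDO1C value of ATF4 missed it without siCtrl replicate 2, siCtrl replicate 3 or siCDO1C replicate 1 (up to 0.109). No direction changed.

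DDIT3 (ENSG00000175197, chr12:57516588-57521737) encodes CHOP, a transcription factor known for its part in the death of cells under lasting ER stress. Its level was 20.0, 23.9 and 22.9 CPM in siCtrl, 20.2, 21.3 and 17.0 CPM with siCDO1A and 10.3, 15.1 and 11.1 CPM with siCDO1C. The siCDO1C libraries lay below all 6 others, and siCDO1A overlapped siCtrl. DDIT3 fell with siCDO1C by 0.88 on the log2 scale (SE 0.14, adjusted p = 0.00203), a change of -45.6%, and it passed the test in all 6 fits that left out 1 library and in all 6 other settings. With siCDO1A the log2 fold change was -0.20 (95% interval -0.415 to 0.0254, adjusted p = 0.24).

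The row of DDIT3 in the annotation shares bases with its neighbours. MARS, encoding the methionyl-tRNA synthetase, shares 982 bases and MBD6 shares 1028 bases, both on the opposite strand, and the gene model AC022506.1, counted at 0 in every library, shares 2769 bases on the same strand. The strand setting of the counting and the treatment of shared bases are not given in the sources used here, so how these rows divide reads is uncertain. MARS had 1607 to 2588 counts per library and a log2 fold change of -0.26 (SE 0.0696, adjusted p = 0.0427) with siCDO1C, and MBD6 had 978 to 1537 counts and -0.09 (SE 0.0887, adjusted p = 0.628), against -0.88 for DDIT3.

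ATF3 (ENSG00000162772, chr1:212565334-212620777), an inducible transcription factor downstream of ATF4, was the least abundant of the 10 genes per length. It had 50, 32 and 70 counts in siCtrl, 29, 26 and 36 counts with siCDO1A and 32, 21 and 14 counts with siCDO1C, or 3.90, 2.55 and 4.35 CPM, 2.38, 1.78 and 2.38 CPM, and 2.19, 1.60 and 1.16 CPM. No siRNA library reached the lowest siCtrl library, with siCtrl replicate 2 close to the siCDO1A libraries. The log2 fold change of ATF3 was -0.74 (SE 0.245, adjusted p = 0.0462) with siCDO1A and -1.12 (SE 0.287, adjusted p = 0.0377) with siCDO1C. Both calls depended on single libraries, and the part of the low counts in this was not tested. The siCDO1A call was lost without siCtrl replicate 1 or 3 or siCDO1A replicate 1 or 2 (adjusted p up to 0.199), with the batch block (0.0662), with DESeq2 and in 1 fit of all 9 libraries (adjusted p up to 0.0912), and the siCDO1C call without siCtrl replicate 1 or 3 or siCDO1C replicate 3 (up to 0.193).

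CEBPB (ENSG00000172216, chr20:50190734-50192689), encoding a partner with which CHOP and ATF4 form dimers, was the gene that rose. It was at 16.9, 16.3 and 15.8 CPM in siCtrl, 22.6, 19.7 and 19.4 CPM with siCDO1A and 13.6, 17.3 and 13.8 CPM with siCDO1C. The siCDO1A libraries lay above all others, and siCDO1C overlapped siCtrl. For CEBPB the log2 fold change was 0.33 (SE 0.101, adjusted p = 0.0323) with siCDO1A and -0.14 (95% interval -0.402 to 0.119, adjusted p = 0.591) with siCDO1C. The siCDO1A call was lost with the batch block (adjusted p = 0.0744), with DESeq2 and in 1 fit of all 9 libraries (adjusted p up to 0.0811), and without any 1 of the siCtrl libraries or siCDO1A replicate 1 or 2 (up to 0.166). The antisense gene CEBPB-AS1, which shares 765 bases with it, had 7 to 21 counts per library.

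Of the feedback inhibitors, PPP1R15A fell with siCDO1A and TRIB3 passed the test in neither comparison. PPP1R15A (ENSG00000087074, chr19:48872392-48876057) was at 21.6, 23.2 and 23.2 CPM in siCtrl, 17.0, 19.2 and 13.7 CPM with siCDO1A and 17.95, 20.4 and 15.5 CPM with siCDO1C. The 6 siRNA libraries were the lowest of the 9, and the siRNA groups overlapped each other. Its log2 fold change was -0.45 (SE 0.113, adjusted p = 0.00964) with siCDO1A, a call kept in all 6 fits that left out 1 library and in all 6 other settings. With siCDO1C it was -0.34 (SE 0.114, 95% interval -0.586 to -0.102, adjusted p = 0.103), and it passed without siCDO1C replicate 2 (log2 fold change -0.439, adjusted p = 0.00662).

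TRIB3 (ENSG00000101255, chr20:362835-397559), encoding a pseudokinase that binds ATF4 and CHOP, was at 92.7, 84.3 and 96.7 CPM in siCtrl, 100.5, 102.2 and 94.1 CPM with siCDO1A and 83.3, 88.2 and 86.0 CPM with siCDO1C. Both siRNA groups overlapped siCtrl, and the siCDO1C libraries were below the siCDO1A libraries. For TRIB3 the log2 fold change was 0.12 (95% interval -0.0231 to 0.252, adjusted p = 0.273) with siCDO1A and -0.10 (95% interval -0.26 to 0.0679, adjusted p = 0.561) with siCDO1C.

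**Figure D2:**
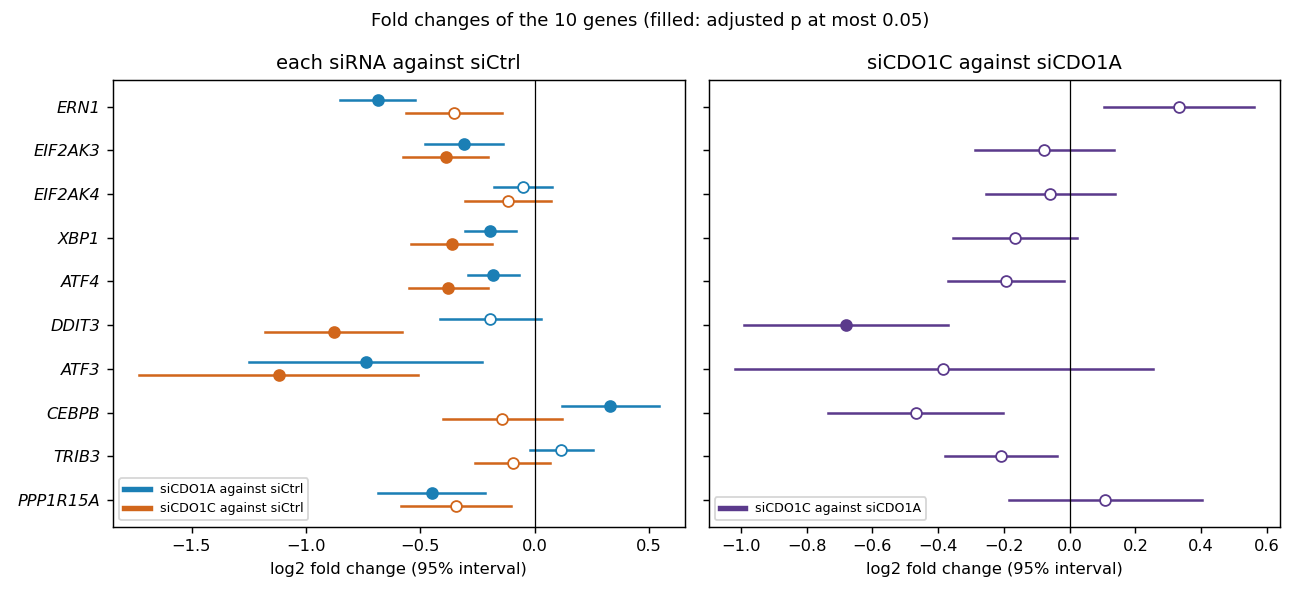
Log2 fold change (horizontal axis) with its 95% interval for each of the 10 genes, at left for siCDO1A and siCDO1C against siCtrl and at right for siCDO1C against siCDO1A, with filled points for an adjusted p of at most 0.05. With siCDO1C all 10 points lie below 0, and in the direct comparison DDIT3 is the filled point.

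Whether the CDO1 siRNAs differ in these genes was tested directly, without the siCtrl libraries. DDIT3 was lower with siCDO1C than with siCDO1A by a log2 fold change of -0.68 (SE 0.148, 95% interval -0.992 to -0.371, adjusted p = 0.0496), and no other of the 10 genes passed. Of all genes tested, 0.444% differed between the siRNAs and 0.199% were lower with siCDO1C. Within the 3 batches the log2 ratio of siCDO1C to siCDO1A for DDIT3 was -0.973, -0.491 and -0.609. The call lies at the threshold, and it was lost with RLE size factors or at least 10 counts in every library (adjusted p up to 0.0595) and in the 5 fits that left out any library other than siCDO1C replicate 2 (up to 0.396).

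CEBPB had a log2 fold change of -0.47 (95% interval -0.736 to -0.202, adjusted p = 0.172), ATF3 of -0.39 (95% interval -1.02 to 0.253, adjusted p = 0.908) and ERN1 of 0.33 (95% interval 0.105 to 0.562, adjusted p = 0.323). The CEBPB libraries of siCDO1C all lay below those of siCDO1A, the ERN1 libraries all lay above, and those of ATF3 overlapped. Without siCDO1C replicate 2, 5 of the genes passed, with log2 fold changes of -0.867 for DDIT3, -0.590 for CEBPB, 0.425 for ERN1, -0.272 for ATF4 and -0.268 for XBP1 (largest adjusted p = 0.0215). Over all genes, 69 differed between the siRNAs with every library kept, and from 18 to 447 when 1 library was left out. Leaving out siCDO1C replicate 2 also took the genes changed between siCDO1C and siCtrl from 5 to 7, adding ERN1 and PPP1R15A, while the count over all genes went from 742 to 2068.

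Levels of different genes can be compared only per length, as CPM per kilobase of gene. In siCtrl cells ATF4 stood at 161 ± 10.2, XBP1 at 115 ± 3.61, TRIB3 at 26.6 ± 1.84 and DDIT3 at 17.0 ± 1.53 CPM per kilobase (SD, n = 3). CEBPB at 8.36 ± 0.274, EIF2AK4 at 7.97 ± 0.162 and EIF2AK3 at 7.8 ± 0.312 CPM per kilobase followed, each overlapping the next, so this part of the order does not exceed the spread. PPP1R15A at 7.34 ± 0.309, ERN1 at 4.2 ± 0.0649 and ATF3 at 0.89 ± 0.232 CPM per kilobase closed the order without overlap between neighbours. The group means ranked the 10 genes in the same order in siCDO1A and siCDO1C cells, where ATF4 stood at 142 and 125, DDIT3 at 14.9 and 9.32 and ATF3 at 0.539 and 0.408 CPM per kilobase.

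**Figure D3:**
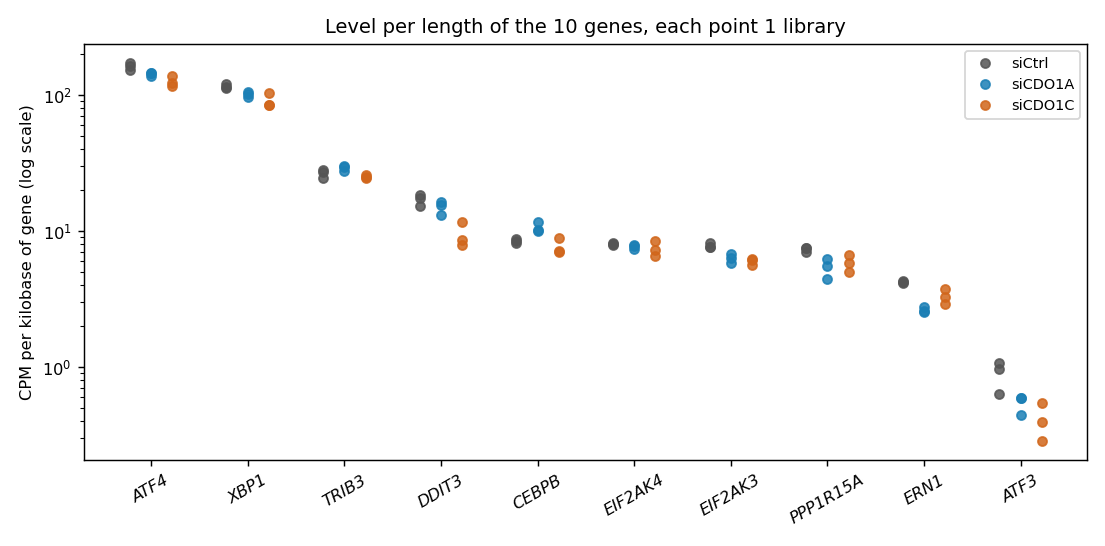
Level per length of the 10 genes in CPM per kilobase (log scale), ordered by the siCtrl mean, with 1 point per library and a colour per group. The levels span from 161 CPM per kilobase for ATF4 to 0.89 for ATF3 in siCtrl, and the points of CEBPB, EIF2AK4 and EIF2AK3 overlap.

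The genes downstream of ATF4 were also set against ATF4 in the same library, as a description without a test. DDIT3 per length was 10.6% ± 0.632 of ATF4 in siCtrl, 10.5% ± 0.938 with siCDO1A and 7.42% ± 0.847 with siCDO1C (SD, n = 3), and the siCDO1C libraries (6.83% to 8.39%) lay below those of siCtrl (10.2% to 11.3%). TRIB3 was 16.5% ± 1.37 of ATF4 in siCtrl, 20.2% ± 0.353 with siCDO1A and 20.1% ± 1.32 with siCDO1C, and both siRNA groups lay above siCtrl. A ratio of this kind shows unequal change and not which gene changed. PPP1R15A was 4.55% ± 0.141, 3.77% ± 0.547 and 4.65% ± 0.466 of ATF4, and CEBPB was 5.2% ± 0.502, 7.39% ± 0.534 and 6.09% ± 0.311, in siCtrl, siCDO1A and siCDO1C.

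**Figure D4:**
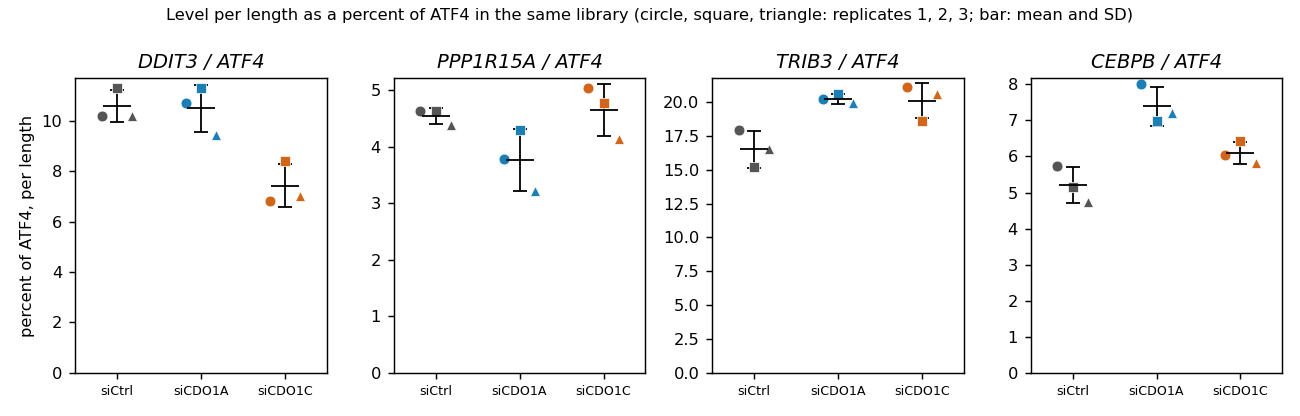
Level per length of DDIT3, PPP1R15A, TRIB3 and CEBPB as a percent of ATF4 in the same library (vertical axes, from 0), with circle, square and triangle for replicates 1, 2 and 3 and bars for mean and SD. The DDIT3 share is lower in siCDO1C (7.42%) than in siCtrl (10.6%), and the TRIB3 share is higher in both siRNA groups (20.2% and 20.1% against 16.5%).

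To see which genes had the most similar pattern, log2 CPM (with 0.5 CPM added) was centred on the siCtrl mean, and the root mean square difference over the 9 libraries was taken. This is a description over 9 libraries that share their depth and scaling. Among the 45 pairs of the 10 genes, XBP1 and ATF4 were the closest, at 0.0393, and ATF3 and CEBPB the farthest, at 0.75. Outside the 10 genes, SERP1, encoding an ER membrane protein, was nearest to XBP1 (0.0446), and ST7 was nearest to ATF4 (0.0428). The nearest genes were AOX1 (0.0709) for ERN1, GOLGA5 (0.0631) for EIF2AK3, TMCO3 (0.0647) for PPP1R15A and HSD17B8 (0.095) for CEBPB. DDIT3 and ATF3 had no neighbour as close, with STEAP4 and DAZAP2 (both 0.167) for DDIT3 and LIPH (0.18) for ATF3. The difference is not scaled to the spread of a gene over the libraries.

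Other genes of the pathway were counted from 6 lists written from general knowledge that hold none of the 10 genes. The lists were chosen with earlier results of these data known, so their shares describe the lists and are not an independent test. Targets of XBP1 and ATF6, which serve folding, transport and degradation of ER proteins, were all tested, and 18 of 44 fell and 1 rose with each siRNA. That is 43.2% changed with each, beside the 14.8% and 4.77% of all genes above, and the median log2 fold change was -0.16 (siCDO1A) and -0.26 (siCDO1C). The genes were partly different ones: 12 fell and 1 rose with both siRNAs (29.5%), where 267 fell and 296 rose of the 15555 genes tested. HERPUD1, which acts in ER-associated degradation, went from 132 ± 2.49 CPM in siCtrl to 93.0 ± 0.962 CPM with siCDO1A and 75.2 ± 5.76 CPM with siCDO1C (log2 fold changes -0.50 and -0.82, largest adjusted p = 2.03e-05). The cochaperone DNAJB9, a classical XBP1 target, went from 23.6 ± 1.88 CPM to 14.2 ± 2.01 and 16.5 ± 2.24 CPM (-0.74 and -0.53, largest adjusted p = 0.0185), and its siCDO1C call was lost without siCtrl replicate 1, siCtrl replicate 2 or siCDO1C replicate 1 (adjusted p up to 0.114). SEC24D, a coat protein of vesicles leaving the ER, had log2 fold changes of -0.54 and -0.63, and the disulfide isomerase PDIA6 had -0.43 and -0.48.

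SEC63, a part of the translocation machinery, was the 1 gene of that list that rose, from 92.6 ± 11.1 CPM to 127 ± 10.5 and 123 ± 10.0 CPM (log2 fold changes 0.46 and 0.41, largest adjusted p = 0.0214). Its siCDO1C call was lost without any 1 of the siCtrl libraries or siCDO1C replicate 3 (adjusted p up to 0.13). HSPA5, encoding the chaperone BiP that holds the sensors inactive, was picked after its values were seen and had log2 fold changes of -0.23 (adjusted p = 0.00173) and -0.55 (adjusted p = 0.000664). With the batch block, 9 genes of the list changed with siCDO1A in place of 19.

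ATF4 and CHOP target genes of amino acid synthesis and transport, transfer RNA charging and cell death formed another list. It includes MARS, which shares bases with DDIT3 and fell with siCDO1C. Of 46 tested, 4 fell and 1 rose with siCDO1A (10.9%, median log2 fold change -0.051), below the 14.8% of all genes tested. With siCDO1C 16 fell (34.8%, median -0.25), beside 4.77% of all genes. Only 1 gene of the list (2.17%) passed with both siRNAs in the same direction. With the batch block the siCDO1C count was 10. It was 3 without siCtrl replicate 1, 2 or 3, 5 without siCDO1C replicate 1, 6 without siCDO1C replicate 3 and 23 without siCDO1C replicate 2. Over all genes the siCDO1C count ran from 263 to 2068 in such fits, against 742. In the direct comparison 3 genes of the list passed, all lower with siCDO1C, and from 0 (without siCDO1A replicate 3) to 10 (without siCDO1C replicate 2) passed when 1 library was left out. SLC7A11, the cystine transporter, was at 41.7 ± 2.8 CPM in siCtrl, 25.2 ± 2.5 CPM with siCDO1A and 14.5 ± 2.02 CPM with siCDO1C, and the log2 fold change between the siRNAs was -0.81 (SE 0.126, adjusted p = 0.0043), a call lost without siCDO1A replicate 3 (adjusted p = 0.0877). ADM2, a secreted peptide, was at 10.9 ± 0.707, 8.81 ± 0.811 and 4.97 ± 0.553 CPM (-0.83 between the siRNAs, SE 0.166, adjusted p = 0.0291), a call lost without any 1 of the siCDO1A libraries or siCDO1C replicate 1 (adjusted p up to 0.216). STC2, a secreted glycoprotein, was at 51.4 ± 1.69, 57.2 ± 2.16 and 43.0 ± 2.18 CPM (-0.42 between the siRNAs, SE 0.0902, adjusted p = 0.0496), and it passed against siCtrl with neither siRNA. The difference between the siRNAs in STC2 was lost without any library other than siCDO1C replicate 2 (adjusted p up to 0.41), with RLE size factors and with at least 10 counts in every library (up to 0.0549).

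Among 23 genes that make up or control eIF2, 3 rose and 4 fell with siCDO1A (30.4%) and 3 fell with siCDO1C (13.0%), with medians of -0.0096 and -0.039. DNAJC3, known as an inhibitor of PERK, went from 56.9 ± 0.693 CPM in siCtrl to 39.3 ± 2.25 CPM with siCDO1A and 39.5 ± 0.474 CPM with siCDO1C (log2 fold change -0.53 with each, largest adjusted p = 0.00105). EIF5, which acts on the GTP of eIF2, had log2 fold changes of -0.28 (adjusted p = 0.00151) and -0.29 (adjusted p = 0.0328). The siCDO1C call of EIF5 was lost with the batch block (adjusted p = 0.0557) and without any library other than siCDO1C replicate 2 (up to 0.201). Of 13 tested genes around IRE1, 2 fell with siCDO1A (15.4%) and 1 with siCDO1C (7.69%), near the 14.8% and 4.77% of all genes. Of 20 tested bZIP transcription factors that can pair with factors among the 10, 1 rose and 3 fell with siCDO1A (20.0%) and 1 rose with siCDO1C (5.0%). ATF2 rose with each (log2 fold changes 0.29 and 0.49, largest adjusted p = 0.0221), but its siCDO1A call was lost with the batch block (adjusted p = 0.0669), as was that of the other bZIP factors, and without siCtrl replicate 2, siCtrl replicate 3 or siCDO1A replicate 1 (up to 0.1). Of 20 tested immediate early genes, which respond quickly to many stimuli, 1 rose and 2 fell with siCDO1A and 1 rose with siCDO1C (5.0%), shares near those over all genes. BTG2 was the gene that rose with each (0.28 and 0.38, largest adjusted p = 0.0104), and its siCDO1C call was lost without any 1 of the siCtrl libraries (adjusted p up to 0.071).

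**Figure D5:**
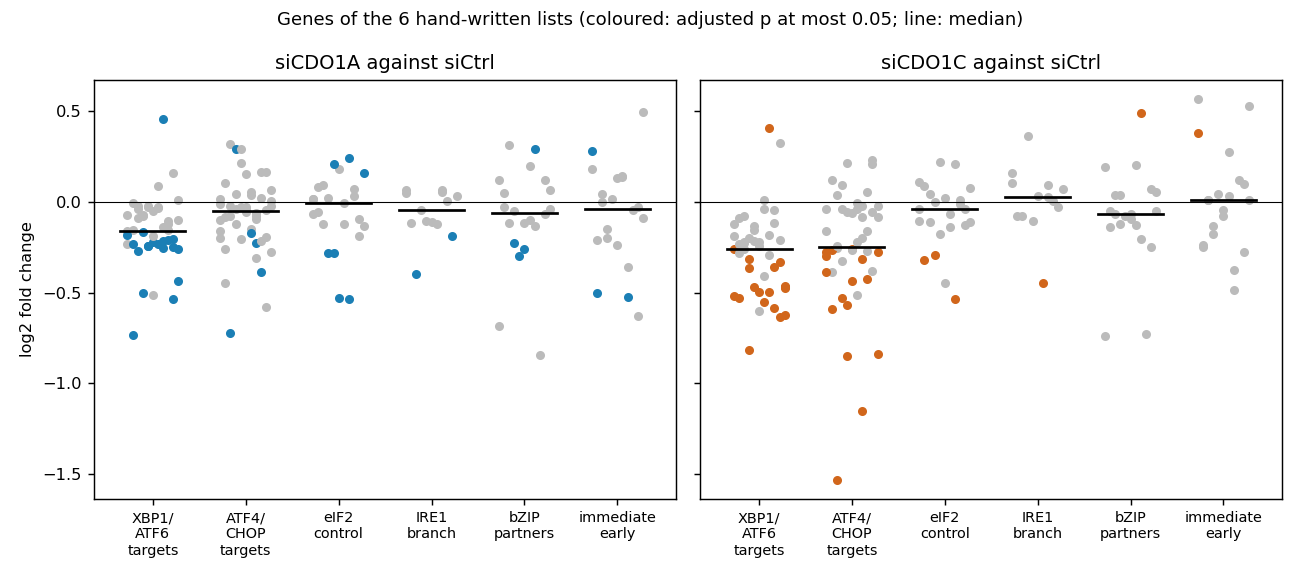
Log2 fold change (vertical axis) of every tested gene of the 6 lists with siCDO1A (left) and siCDO1C (right), with coloured points for an adjusted p of at most 0.05 and a line at the median. The XBP1 and ATF6 targets have a median of -0.16 with siCDO1A and -0.26 with siCDO1C, and the ATF4 and CHOP targets of -0.051 and -0.25.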

How the data were processed

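RNA of VCaP cells was sequenced from both ends as directional poly(A) libraries, 3 for each of siCtrl, siCDO1A and siCDO1C. The authors counted reads per gene with featureCounts and deposited whole counts without normalization. The submitters' processing notes name CASAVA, HISAT2 2.0.5 and hg38. How strand and reads with several alignments were handled is not given in the sources used here, and 3 columns of the table that match no sample were not used. The deposited coordinates of all 10 genes overlap those of RefSeq on GRCh38, though gene starts can differ between the annotations.

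Genes were kept with filterByExpr (minimum count 10 over the 9 libraries), and each comparison used its 6 libraries with TMM scaling and the robust quasi-likelihood test of edgeR 4.0.16 in R 4.3.3, with Benjamini-Hochberg adjustment over 15555 genes. The scripts were tested on simulated data. TMM factors were between 0.9898 and 1.01. The alternatives were DESeq2 1.42.0, RLE size factors, no filter, at least 10 counts in every library, 1 fit of all 9 libraries, the batch number as a block and leaving out each library. Intervals are at 95%.

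The labels give same-numbered libraries the same batch, and the block fit took the numbers to pair the samples. As a check, the deviations from the group means were correlated over 11337 genes with at least 5 CPM, and the correlation for numbers 1, 2 and 3 was -0.198, -0.0884 and -0.37 between siCDO1A and siCtrl, 0.0513, -0.00845 and -0.272 between siCDO1C and siCtrl, and -0.131, 0.124 and 0.372 between siCDO1C and siCDO1A. Most of these values were negative, so the check does not show that same-numbered libraries vary together. The fits reported first used no block.

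The 10 genes and the lists were chosen with earlier results of these data known. Named from each list were up to 5 genes that passed with both siRNAs in the same direction, with the largest smaller fold change, and any that differed between the siRNAs. The nearest genes by pattern were taken for each of the 10 genes that passed against siCtrl.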

Additional observations from a re-analysis of the deposited data

Results flagged for a closer look

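Of all genes tested, 69 differed between the CDO1 siRNAs in the direct edgeR comparison. Those among the 10 genes and the 6 lists were DDIT3, STC2, ADM2 and SLC7A11. With siCDO1C against siCDO1A, the log2 fold change was -0.682 for DDIT3 (adjusted p = 0.0496), -0.417 for STC2 (adjusted p = 0.0496), -0.834 for ADM2 (adjusted p = 0.0291) and -0.805 for SLC7A11 (adjusted p = 0.0043). For all of them the 3 siCDO1C libraries lay below the 3 siCDO1A libraries. With 1 library left out, SLC7A11 passed in 5 of 6 fits, ADM2 in 2 of 6 and DDIT3 and STC2 in 1 of 6. DDIT3 and STC2 also missed the threshold with RLE size factors and with at least 10 counts in every library. CDO1 itself had a log2 fold change of -0.56 between the siRNAs (95% interval -1.3 to 0.176, adjusted p = 0.826).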

How the results depend on the processing

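Over 180 values of the 10 genes in 6 other settings, 165 kept their side of the threshold, 12 lost it and 3 gained it, and over 180 values with 1 library left out 134 kept it, 39 lost it and 7 gained it. None that had passed changed direction. Of the 10 genes, siCDO1A changed 3 in 1 fit of all 9 libraries and 3 with the replicate block (batch number), against 7, and from 2 to 7 without 1 library each. The number changed with siCDO1C ran from 1 to 7 without 1 library, against 5. It was 1, DDIT3, without siCtrl replicate 3 and 7 without siCDO1C replicate 2. Between the siRNAs it was 0 with RLE size factors, 0 with at least 10 counts in every library, and from 0 to 5 without 1 library, against 1. DESeq2 changed 5, 6 and 1 of the genes in the 3 comparisons. The replicate block changed no other call of the 10 genes than those given above. For XBP1 and ATF6 targets, the count between the siRNAs was 0 in the edgeR test, with 14 at an unadjusted p under 0.05, and 4 with DESeq2, 4 with no filter, 5 in 1 fit of all 9 libraries and 4 with the block. In 1 fit of all 9 libraries, siCDO1A changed 8 of the XBP1 and ATF6 targets (against 19), 2 of the ATF4 and CHOP targets (against 5), 1 of the bZIP factors (against 4) and 1 of the IRE1 genes (against 2), and the block gave 9, 4, 0 and 1. For ATF4 and CHOP targets, the block gave 10 with siCDO1C (against 16) and 1 fit of all 9 libraries gave 6 between the siRNAs (against 3). Immediate early genes changed with siCDO1C went from 1 to 2 in 1 fit of all 9 libraries and with no filter. Without 1 library each, the XBP1 and ATF6 targets ran from 9 to 22 with siCDO1A and from 9 to 29 with siCDO1C, and the ATF4 and CHOP targets from 2 to 9 and from 3 to 23, and from 0 to 10 between the siRNAs. ATF3 had low counts, and every group had only 3 libraries. The part of either in the lost calls was not tested.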
